A study of Sus scrofa with 9 samples.

Results

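Haptoglobin and the proteins that carry, import, store and export iron were followed in the mammary gland of sows from late pregnancy into lactation. The members were the probe sets annotated to exactly 1 symbol among HP, LTF, TF, TFRC, FTH1, FTL and SLC40A1, which gave 6 of the 6765 genes with a symbol of their own and 8 of the 24123 probe sets on the array. HP, LTF, TFRC and FTH1 had 1 probe set each, TF and FTL had 2 each, and SLC40A1, which encodes the iron exporter ferroportin, had none. Of the 8, 6 were bright enough to be tested; TFRC and 1 TF probe set were not.

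Large White sows (6 animals) were biopsied on 3 days counted from farrowing: day -17 in late pregnancy, day 1 just after birth and day 17 in established lactation, with a tolerance of 2 days noted beside the first and the last, the note beside day 17 being worded for day -17. The labels name no treatment that separated the days. Reproductive stage runs together with biopsy order, elapsed time and any difference in array handling between the days, and these cannot be told apart. Each Affymetrix porcine array received RNA pooled from 2 sows, for 3 pools per day and 9 arrays. The same animals were sampled on every day, and whether a pool number stands for the same sows on each day is not stated, so p-values measure the spread between pools.

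Haptoglobin is a plasma protein that binds free haemoglobin, and the complex is taken up by macrophages through the receptor CD163. It is an acute phase protein made mainly by the liver, and lactoferrin, the product of LTF, is an iron-binding, antimicrobial protein of milk and of neutrophil granules. Transferrin (TF) carries iron in plasma, the transferrin receptor (TFRC) brings it into cells, and the heavy (FTH1) and light (FTL) chains of ferritin build the shell in which cells store it. Iron regulatory proteins hold back ferritin translation and stabilise TFRC mRNA when iron is short, so ferritin protein need not follow its mRNA.

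Values are the deposited MAS5 signals, which are linear intensities scaled so that every array has nearly the same trimmed mean (500.088 to 500.112). Probe sets were tested with limma on the log2 scale if they reached the 40th percentile of the array (a signal of 82.1 to 94.2) on at least 3 arrays, which 15519 did. Differences are given as log2 ± standard error with n = 3 pools per day, and a change is called at a Benjamini-Hochberg adjusted p under 0.05. The tissue label fits the milk secretion markers: all 7 were called higher on day 17 than on day -17, and their summed signal was 60484 to 85934 on day -17, 216820 to 304310 on day 1 and 458640 to 468490 on day 17. Of 7 tested mammary luminal epithelium genes, 3 were called higher and 2 lower on day 17 than on day -17. Over all tested probe sets these shares were 21.7% and 24.8%. Precision is limited by the number of arrays. In bulk tissue, fewer cells of a type and less RNA per cell cannot be told apart.

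All directions are relative to the shared array mean. The 21 E. coli control probe sets gained brightness over the days: the median log2 difference was 0.44 for day 1 against day -17, 0.89 for day 17 against day 1, and 1.28 between day 17 and day -17. Scaling the arrays to these controls lowers every log2 difference by 0.43, 0.87 and 1.30 in these comparisons. It moves the median of all tested probe sets to -0.49, -0.88 and -1.38, against -0.07, -0.0092 and -0.08 as deposited. Members whose direction turns with this scaling are named as such below, as are most of those whose call turns.

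HP, LTF and FTH1 were higher on day 1 than on day -17, and HP, LTF, FTH1 and the brighter FTL probe set were higher on day 17 than on day -17. That is 3 of 6 tested probe sets called for day 1 against day -17, where 24.1% of all tested probe sets were called (1860 higher, and 1876, or 12.1%, lower). For day 17 against day 1, 2 of 6 were called (FTH1 and the brighter FTL probe set), both higher, beside a background of 13.6%, with 7.02% higher and 6.61% lower. For day 17 against day -17, 5 of 6 were called, 4 of them higher and 1 lower, beside a background of 46.5%, with 21.7% higher and 24.8% lower. In the F test over the 3 days, 5 of 6 passed, all but TF, where 45.3% of all tested probe sets did. With E. coli scaling the rises of FTH1 and FTL did not hold, whereas HP on both later days and LTF on day 1 remained higher than on day -17.

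**Figure D1:**
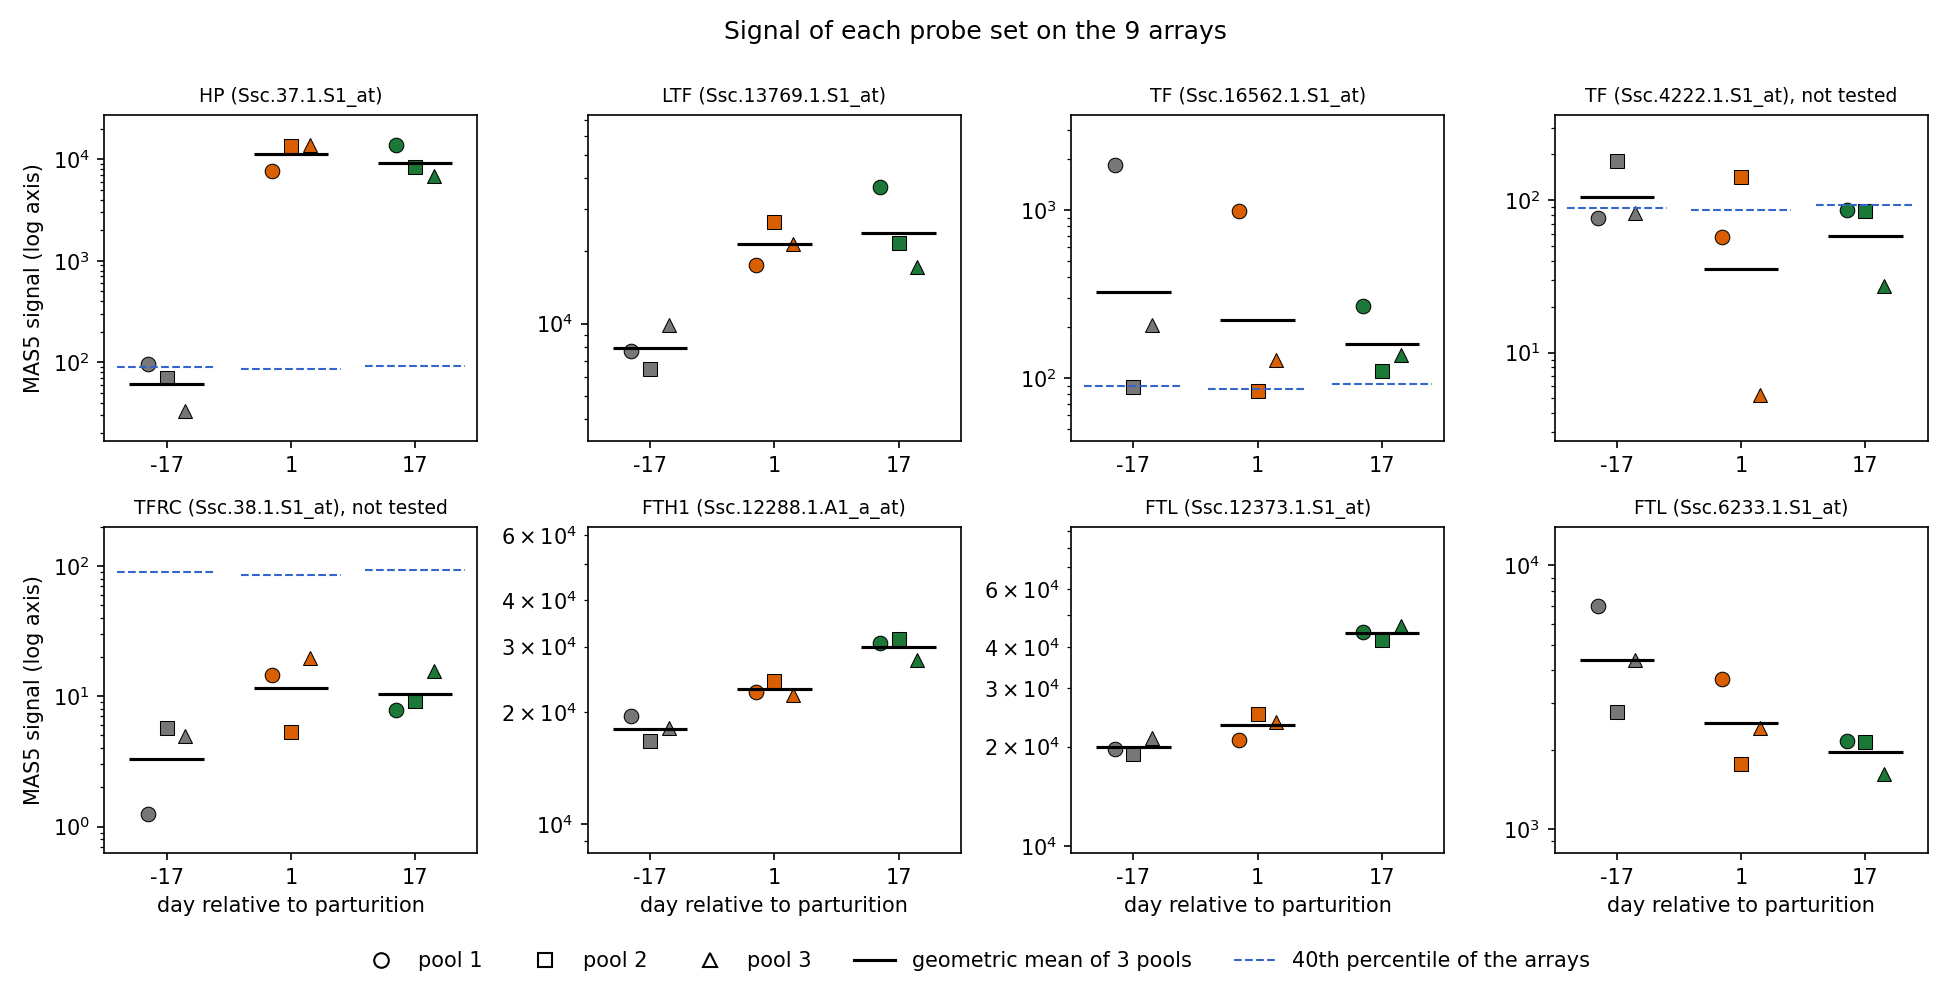
MAS5 signal (log axis) of the 8 probe sets on the 9 arrays by day, with pools 1 to 3 as symbols, the geometric mean of each day as a bar and the 40th percentile of the arrays as a dashed line. HP lay close to or below that line on day -17 and at 6865 or more on the 6 later arrays.

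The HP probe set (Ssc.37.1.S1_at) had signals of 96.4, 70.4 and 33.3 in pools 1 to 3 of day -17. On day 1 the signals were 7595, 13444 and 13724, and on day 17 they were 13719, 8312 and 6865. Every array of the later days was far above every array of day -17, on which only pool 1 reached the 40th percentile, while days 1 and 17 overlapped.

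Between day 1 and day -17 the HP difference was 7.52 ± 0.39 (limma, adjusted p = 2.49e-06), a ratio of geometric means of 184-fold. Since the day -17 signals were dim, the ratio depends on the floor: it was 143-fold with 16 added to each signal, and 122-fold where each day -17 array was held to at least its own 40th percentile. For day 17 against day -17 the difference was 7.24 ± 0.39 (adjusted p = 1.16e-06), 151-fold, or 118-fold and 100.3-fold on the same floors. Day 17 against day 1 gave -0.28 ± 0.39 (adjusted p = 0.671, 95% interval -1.15 to 0.59), which is -1.15 with E. coli scaling (adjusted p = 0.025).

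HP stood between the 26.4th and the 99.2nd percentile of an array, the widest range among the members. Leaving out any 1 array kept the difference of day 1 against day -17 between 7.09 and 7.85. The probe sets whose log2 signal followed HP most closely over the 9 arrays, among 5513 genes, were those of DNAJB9 (Pearson r = 0.99), ARL1 (0.99) and SPCS3 (0.99), which share the arrays and their scaling with it.

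Markers of hepatocytes and neutrophils, cells known for haptoglobin or lactoferrin, were mostly below the filter. Of 6 hepatocyte marker genes on the array, 5 were below the filter, among them ALB (albumin) at 0.99 to 43.6. The tested one, AHSG, was not called in any comparison and had a signal of 45.4 to 115 on day -17, 9.45 to 102 on day 1 and 136 to 197 on day 17. Of 4 neutrophil marker genes, S100A8 (18.6 to 81.4), S100A9 (21.2 to 273) and ELANE (4.33 to 49.97) were below the filter. S100A12 was tested, was not called and ranged over 43.0 to 135 on day -17, 2.83 to 114 on day 1 and 3.93 to 48.9 on day 17. The milk secretion genes were also higher on both later days than on day -17, and their part in the HP and LTF results was not tested.

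CD163 and HPX, which clear haemoglobin and haem beside haptoglobin, were not called, while HBB was lower on both later days. CD163, the receptor for its complex with haemoglobin, gave 0.31 ± 0.43 for day 1 against day -17, -1.20 ± 0.43 for day 17 against day 1 and -0.89 ± 0.43 for day 17 against day -17, none of which passed (adjusted p = 0.631, 0.0908 and 0.115). These CD163 values, and the lack of a call, are from the brighter of its 2 tested probe sets, and the other is not reported here. Haemopexin (HPX), the plasma protein that binds free haem, stayed below the filter at signals of 6.23 to 33.4. HBB, the haemoglobin beta chain from red blood cells, had signals of 603, 589 and 556 on day 17 and 845, 751 and 741 on day 1, against 1472, 1569 and 1346 on day -17 (-1.33 ± 0.13 for day 17 and -0.91 ± 0.13 for day 1 against day -17, limma adjusted p = 4.08e-05 and 0.00109). Over the 3 erythrocyte markers the summed signal was 1587 to 3354 on day -17, 870 to 1303 on day 1 and 750 to 839 on day 17. For day 17 against day -17, 2 of the 3 were called lower, where 24.8% of all tested probe sets were called lower. The other, AHSP, had signals of 471, 40.3 and 35.9 on day -17 and of 122, 141 and 173 on day 17. Its day 17 signals lay above pools 2 and 3 and below pool 1 of day -17. The part of these markers in the HP result was not tested.

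The LTF probe set (Ssc.13769.1.S1_at) was bright throughout, above the 98th percentile on each of the 9 arrays. It had signals of 7665, 6499 and 9865 on day -17, of 17451, 26356 and 21439 on day 1 and of 36739, 21585 and 17131 on day 17. All 6 later arrays lay above the 3 of day -17, and pool 1 of day 17 was the highest while pool 3 of that day was the lowest of the later ones.

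LTF was 2.72-fold higher on day 1 than on day -17 (1.44 ± 0.27, limma adjusted p = 0.00445) and 3.02-fold higher on day 17 than on day -17 (1.60 ± 0.27, adjusted p = 0.00103). With E. coli scaling the first difference was 1.01 (adjusted p = 0.0113), and the second was 0.29 and no longer passed (adjusted p = 0.310). Day 17 against day 1 gave 0.15 ± 0.27 (adjusted p = 0.736, 95% interval -0.44 to 0.75), and its sign turned without pool 1 of day 17 (-0.16), with quantile normalization (-0.10) and with E. coli scaling (-0.72, adjusted p = 0.0302). LTF and HP signals had a Pearson r of 0.91 over the 9 arrays. The genes most like LTF were WDR20 (0.97), ATP6V1C1 (0.97) and CPM (0.96).

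**Figure D2:**
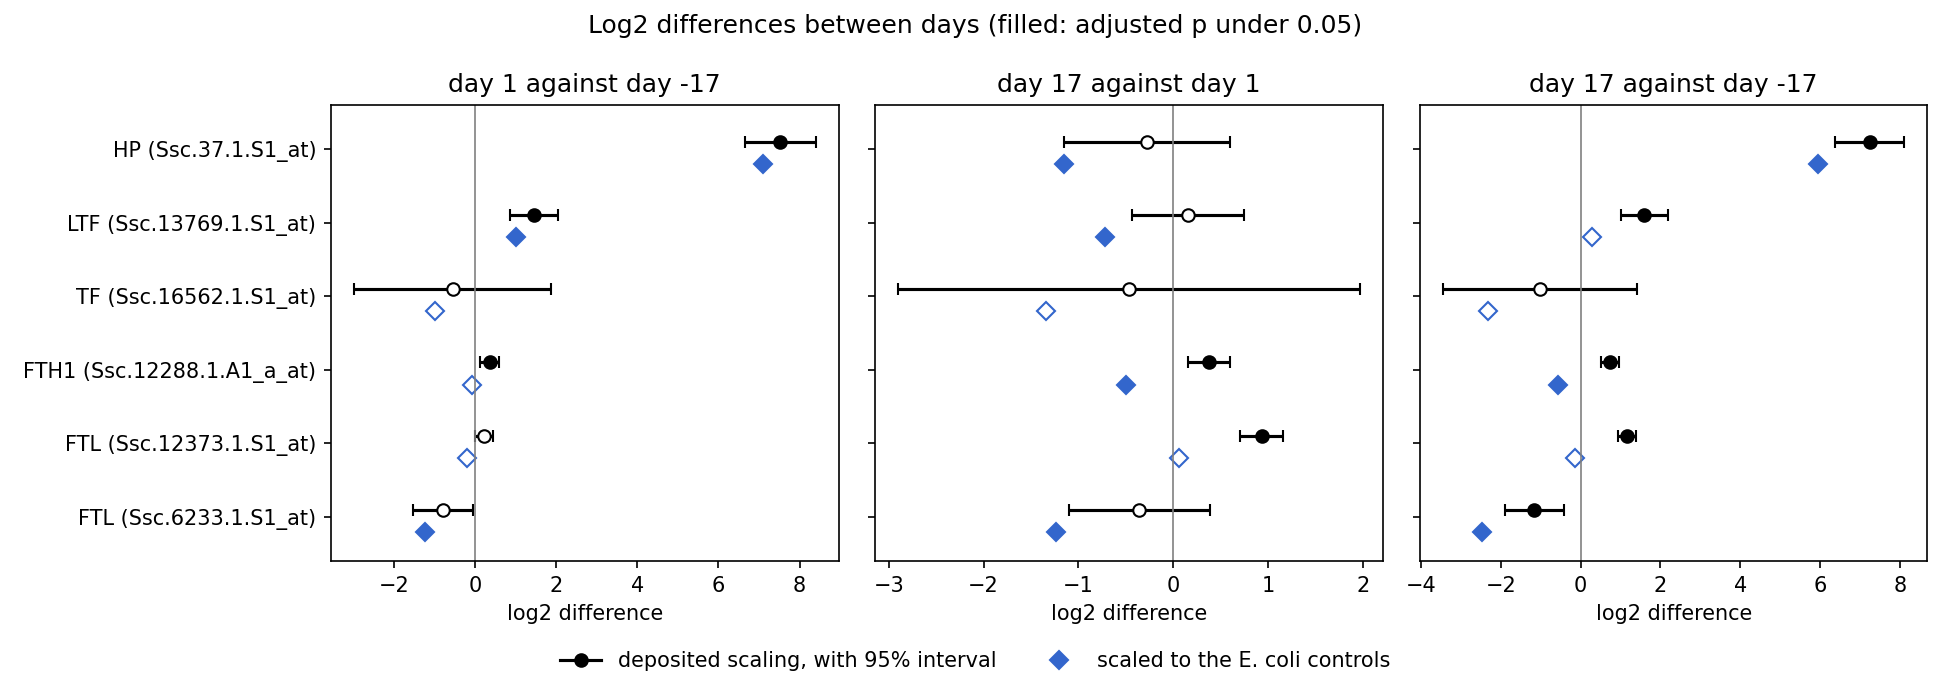
Log2 difference of the 6 tested probe sets in the 3 comparisons, with the 95% interval (circles, deposited scaling) and the value after scaling to the E. coli controls (diamonds). Filled symbols have an adjusted p under 0.05: HP stays at 5.94 or above against day -17 under both scalings, whereas FTH1 changes sign.

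The probe set for TF that was tested (Ssc.16562.1.S1_at) was set apart by pool rather than by day. It had signals of 1841, 89.0 and 207 on day -17, of 983, 84.4 and 129 on day 1 and of 268, 110.4 and 138 on day 17. Pool 1 was the highest of its day on all 3 days, by 2.51, 2.16 and 0.75 log2 above the mean of the day, and the days overlapped in every comparison.

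No difference of TF passed: day 1 against day -17 gave -0.56 ± 1.10 (limma adjusted p = 0.742), day 17 against day 1 gave -0.46 ± 1.10 (adjusted p = 0.809) and day 17 against day -17 gave -1.02 ± 1.10 (adjusted p = 0.467). The 95% interval of the last ran from -3.45 to 1.41, so changes of several-fold either way were not detectable with these pools. Single arrays set the sign. Without pool 1 of day -17 the differences of day 1 and day 17 against day -17 were 0.70 and 0.23, without pool 2 of day 1 the first was 0.14, and without pool 1 of day 1 the difference of day 17 against day 1 was 0.61.

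The genes most like TF in log2 signal were PROCR (Pearson r = 0.96), CLDN5 (0.94) and SPARCL1 (0.93). PROCR encodes the endothelial protein C receptor and CLDN5 a tight junction protein of endothelium. The pig annotation (Sscrofa11.1) holds 2 neighbouring genes with the symbol TF, and the gene behind this probe set has the older name PICA, for the porcine inhibitor of carbonic anhydrase, a relative of transferrin. From the annotation alone the values cannot be assigned to plasma transferrin.

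The TF probe set for the other gene of that symbol (Ssc.4222.1.S1_at) was dim and was not tested. It had signals of 76.8, 182 and 82.6 on day -17, of 57.8, 143 and 5.24 on day 1 and of 86.2, 85.0 and 27.6 on day 17, with overlap between all days. Fitted without the filter it gave -1.58 ± 1.01 for day 1 against day -17 (adjusted p = 0.344) and -0.84 for day 17 against day -17 (adjusted p = 0.563).

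The transferrin receptor probe set (TFRC, Ssc.38.1.S1_at) did not reach the 40th percentile on any array and lay between the 2.03rd and the 19.2nd percentile. Its signals were 1.25, 5.75 and 4.94 on day -17, 14.6, 5.31 and 19.7 on day 1 and 7.88, 9.23 and 15.6 on day 17. At these levels no difference could be shown, and without the filter the difference of day 1 against day -17 was 1.81 ± 0.85 (adjusted p = 0.194) and that of day 17 against day -17 was 1.66 (adjusted p = 0.160).

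The ferritin heavy chain probe set (FTH1, Ssc.12288.1.A1_a_at) was among the brightest on the array, above the 99th percentile on every array, and its pools differed little within a day. Signals were 19479, 16672 and 18047 on day -17, 22652, 24264 and 22228 on day 1 and 30751, 31525 and 27578 on day 17. The 3 days did not overlap in any comparison, while 40.8% of all tested probe sets did not overlap between day 1 and day -17, 34.7% between day 17 and day 1, and 59.0% between day 17 and day -17.

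FTH1 was 1.28-fold higher on day 1 than on day -17 (0.35 ± 0.10, limma adjusted p = 0.0299), 1.30-fold higher on day 17 than on day 1 (0.38 ± 0.10, adjusted p = 0.0349) and 1.66-fold higher on day 17 than on day -17 (0.73 ± 0.10, adjusted p = 3.39e-04). With E. coli scaling these became -0.08 (adjusted p = 0.598), -0.50 (adjusted p = 0.00303) and -0.57 (adjusted p = 7.35e-04), and with quantile normalization none passed (0.15, 0.06 and 0.21, adjusted p = 0.294, 0.698 and 0.0979). The calls of the single steps also ended under other settings. For day 1 against day -17 the adjusted p was 0.0843 with no filter, 0.0858 with no intensity trend and 0.0706 with only the 6 compared arrays. For day 17 against day 1 it was 0.0979 with median centring, 0.0928 with no filter, 0.0964 with no intensity trend and 0.0654 with only the 6 compared arrays. The call for day 1 against day -17 was lost without pool 2 (adjusted p = 0.105) or pool 3 (0.0756) of day -17 and without pool 2 (0.0867) or pool 3 (0.0564) of day 1. That for day 17 against day 1 was lost without pool 3 of day -17 (0.0531), pool 2 (0.0537) or pool 3 (0.0870) of day 1 and pool 1 (0.107), pool 2 (0.117) or pool 3 (0.0557) of day 17. The genes most like FTH1 were CCPG1 (Pearson r = 0.99), MFSD4A (0.98) and MRPL54 (0.98).

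FTL, the ferritin light chain, had probe sets that moved in opposite directions at the deposited scaling. The brighter one (Ssc.12373.1.S1_at) had signals of 19599, 18997 and 21299 on day -17, of 20863, 25020 and 23815 on day 1 and of 44415, 42071 and 46444 on day 17. Day 17 stood clear of both other days, which overlapped with each other.

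The brighter FTL probe set was 1.91-fold higher on day 17 than on day 1 (0.93 ± 0.10, limma adjusted p = 0.00126) and 2.22-fold higher on day 17 than on day -17 (1.15 ± 0.10, adjusted p = 2.76e-05). Day 1 against day -17 gave 0.22 ± 0.10 (adjusted p = 0.148, 95% interval -0.01 to 0.44), which passed without pool 1 of day 1 (0.29, adjusted p = 0.0316). With E. coli scaling none of the 3 passed, with values of 0.06 for day 17 against day 1, -0.15 for day 17 against day -17 and -0.21 for day 1 against day -17 (adjusted p = 0.528, 0.112 and 0.0608). Its signal reached 55.5% of that of the brightest probe set of an array. It correlated with FTH1 at a Pearson r of 0.90, and the genes most like it were TMBIM6 (0.99), RETREG2 (0.99) and GALM (0.98).

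The dimmer FTL probe set (Ssc.6233.1.S1_at) had signals of 7013, 2783 and 4367 on day -17, of 3730, 1772 and 2418 on day 1 and of 2167, 2151 and 1625 on day 17. Every array of day 17 lay below every array of day -17. As with TF, pool 1 was the highest and pool 2 the lowest on days -17 and 1, and the Pearson r with TF was 0.79.

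The dimmer FTL probe set was 2.24-fold lower on day 17 than on day -17 (-1.16 ± 0.33, limma adjusted p = 0.0166), and -2.47 with E. coli scaling. This call was lost without pool 1 of day -17 (-0.83, adjusted p = 0.0523) and without pool 3 of day 17 (-1.03, adjusted p = 0.0613). Day 1 against day -17 gave -0.80 ± 0.33 (adjusted p = 0.105), which passed with the pool number as a fixed replicate block (adjusted p = 0.0275), without pool 2 of day -17 (-1.14, adjusted p = 0.0352) and without pool 1 of day 1 (-1.09, adjusted p = 0.0320). Day 17 against day 1 gave -0.36 ± 0.33 (adjusted p = 0.503). With E. coli scaling that step was called lower. The genes most like it were PC (Pearson r = 0.97), THBD (0.96) and MYOC (0.96).

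**Figure D3:**
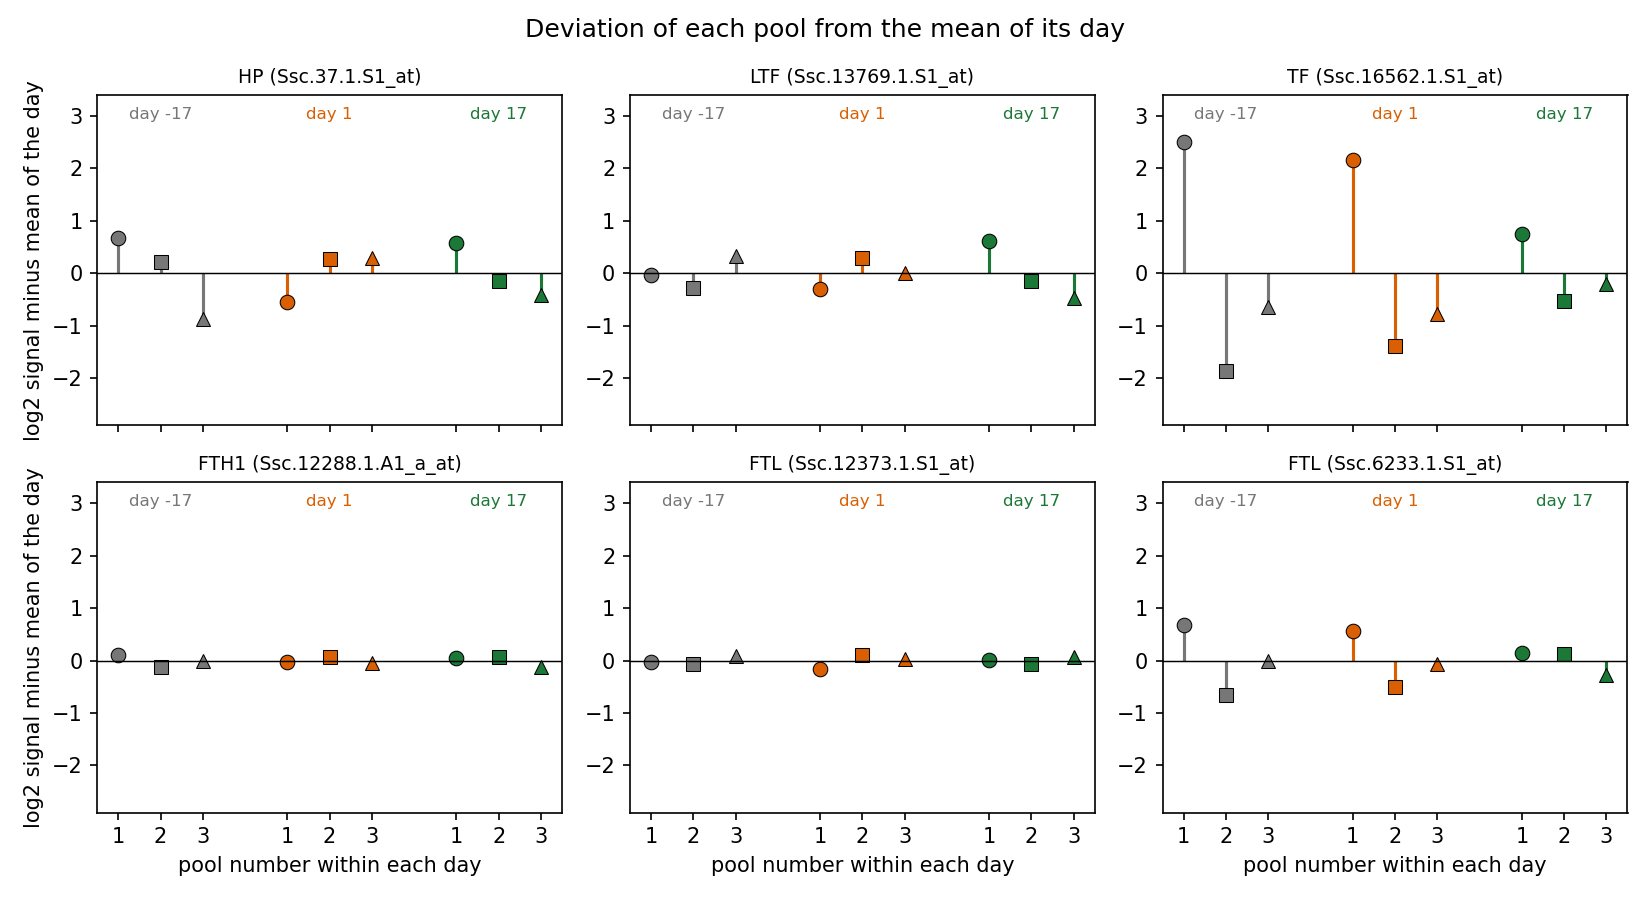
Log2 signal of each pool minus the mean of its day, for the 6 tested probe sets, with pools 1 to 3 side by side within each day. TF spreads from -1.86 to 2.51, with pool 1 above the mean on all 3 days, whereas FTH1 and the brighter FTL probe set stay close to 0.

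The ratio between the FTL probe sets does not change when each array is scaled by a single factor, because both sit on the same array. Quantile normalization is not such a scaling. The log2 ratio of the brighter over the dimmer probe set was 1.48, 2.77 and 2.29 on day -17, 2.48, 3.82 and 3.30 on day 1 and 4.36, 4.29 and 4.84 on day 17. It averaged 2.18 ± 0.65, 3.20 ± 0.67 and 4.49 ± 0.30 (SD, n = 3 pools), and no test is given, since the probe sets were set side by side for their opposite directions. Day 17 stood above the other days on every array. The mean of the log2 signals of both probe sets gave no call in any comparison (-0.29 on day 1 against day -17, 0.29 on day 17 against day 1, and -0.0066 between day 17 and day -17, adjusted p = 0.238, 0.281 and 0.979). Which transcripts each of the FTL probe sets reports was not tested.

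The lists below are described by their counts, beside the share of all tested probe sets called in each direction. For day 1 against day -17 these were 1860 higher and 12.1% lower of the 15519, for day 17 against day 1 they were 7.02% higher and 6.61% lower, and between day 17 and day -17 they were 21.7% and 24.8%. The median differences of all tested probe sets were -0.07, -0.0092 and -0.08.

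Among 15 other genes of iron uptake and reduction, 7 were tested. On day 1 against day -17, 1 was called higher and 1 lower. Between day 17 and day 1 these counts were 0 and 1, and between day 17 and day -17 they were 1 and 2. The median differences were -0.19, -0.98 and -1.42. SLC11A1, an iron and manganese transporter of phagocytes, was higher on day 1 than on day -17 (1.17 ± 0.26, limma adjusted p = 0.0111), a call lost with E. coli scaling. It was lower on day 17 than on day 1 (-0.98 ± 0.26, adjusted p = 0.0366), which was lost without pool 3 of day -17, pool 1 or 2 of day 1, or pool 1 or 3 of day 17 (adjusted p = 0.0544 to 0.103), and with no filter or only the 6 compared arrays (0.0598 and 0.0543).

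LRP2 (megalin), an endocytic receptor, had signals of 46.0, 5.16 and 29.4 on day 1 and of 44.0, 43.3 and 45.6 on day 17, all below the 40th percentile. It passed the filter through day -17 alone, so its calls are given only as description and the size of its fall is uncertain. LRP2 is counted among the lower genes of the list in both comparisons with day -17. With the dim arrays held to at least their 40th percentile it was at least 2.09-fold lower on day 1 and at least 1.94-fold lower on day 17 than on day -17. As fitted it was lower on day 1 than on day -17 (-3.23 ± 0.73, limma adjusted p = 0.0113), except without pool 2 of day -17 (adjusted p = 0.0514). It was also lower on day 17 than on day -17 (-2.02 ± 0.73, adjusted p = 0.0440), a call lost without any 1 of the 6 arrays of those days (adjusted p = 0.0658 to 0.153). SLC11A2, the divalent metal transporter DMT1, was higher on day 17 than on day -17 (0.92 ± 0.28, adjusted p = 0.0218). That call was lost without pool 1 of day -17 or pool 1 or 2 of day 17 (adjusted p = 0.0648 to 0.0777). The sign turned with E. coli scaling (-0.38). The other tested SLC11A2 probe set gave 1.85. STEAP1 was lower on day 17 than on day -17 (-1.80 ± 0.65, adjusted p = 0.0436), which was lost without pool 1 or 3 of day -17, pool 3 of day 1 or any 1 pool of day 17 (adjusted p = 0.0560 to 0.126), and with no filter or no intensity trend (0.0535 and 0.0609). Its 3 day 17 signals (72.6, 82.2 and 72.7) were below the 40th percentile, and held to it the fall was at least 2.85-fold. SCARA5, which is known as a receptor for ferritin, had its highest signals in pool 1 of day -17 (10355) and pool 1 of day 1 (10144), against 539 to 3545 on the other 7 arrays. It was named after its values were seen, and none of its differences passed (-2.37 ± 1.01 for day 17 against day -17, adjusted p = 0.0774).

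Of 16 genes of iron storage, export and regulation, 7 were tested, and 2 were called higher and 1 lower in each comparison with day -17, with none for day 17 against day 1. The median differences were 0.21 for day 1 against day -17, -0.08 for day 17 against day 1 and 0.09 for day 17 against day -17. HAMP, which encodes hepcidin, the hormone that closes ferroportin, had signals of 179, 179 and 142 on day 17, against 47.7, 11.5 and 40.1 on day -17. Its difference was 2.57 ± 0.53 (limma adjusted p = 0.00333), and all 3 day -17 signals were below the 40th percentile, so that it was at least 1.86-fold higher when they were held to it. IREB2, an iron regulatory protein, was higher on day 1 (0.92 ± 0.20, adjusted p = 0.00935) and on day 17 (1.03 ± 0.20, adjusted p = 0.00220) than on day -17; with E. coli scaling the call on day 1 was lost and that on day 17 turned to -0.27. EPAS1, a hypoxia-inducible transcription factor, was higher on day 1 than on day -17 (0.86 ± 0.18, adjusted p = 0.00798), a call lost with E. coli scaling. PCBP2, an RNA-binding protein that also delivers iron to ferritin, was lower on day 1 (-0.97 ± 0.16, adjusted p = 0.00293) and on day 17 (-1.14 ± 0.16, adjusted p = 4.38e-04) than on day -17. Its other tested probe sets gave -0.20 and 0.11 on day 1 and -0.21 and 0.31 on day 17, with no call.

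Genes of haem scavenging, transport and breakdown split in both directions. Of 15, 8 were tested, with 2 called higher and 2 lower on day 1 against day -17. The counts were 1 and 2 between day 17 and day 1, and 2 and 3 between day 17 and day -17. The median differences were 0.39, -0.55 and -0.58. FLVCR2, a membrane transporter related to a haem exporter, was higher on day 1 (1.06 ± 0.19, limma adjusted p = 0.00373) and on day 17 (1.33 ± 0.19, adjusted p = 4.09e-04) than on day -17, the second call being lost with E. coli scaling. HEBP2, a haem-binding protein, was 3.10-fold lower on day 17 than on day 1 (-1.63 ± 0.21, adjusted p = 0.00215) and 3.08-fold lower than on day -17 (-1.62 ± 0.21, adjusted p = 2.54e-04). PGRMC1, a membrane haem-binding protein, was 2.31-fold lower on day 17 than on day -17 (-1.21 ± 0.16, adjusted p = 2.80e-04).

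The smaller steps of PGRMC1 were less firm. The fall on day 1 against day -17 (-0.54 ± 0.16, limma adjusted p = 0.0347) was lost without pool 1 or 2 of day -17, pool 1 or 3 of day 1, or pool 2 or 3 of day 17 (adjusted p = 0.0515 to 0.115), and with median centring, no intensity trend or only the 6 compared arrays (0.0576 to 0.0900). The fall on day 17 against day 1 (-0.66 ± 0.16, adjusted p = 0.0241) was lost without pool 2 or 3 of day 1 or any 1 pool of day 17 (0.0631 to 0.0716). HMOX2, the constitutive haem oxygenase, was higher on day 17 than on day -17 (0.98 ± 0.12, adjusted p = 1.58e-04), but -0.32 with E. coli scaling. It was also higher on day 1 than on day -17 (0.46 ± 0.12, adjusted p = 0.0198) and on day 17 than on day 1 (0.52 ± 0.12, adjusted p = 0.0193, but -0.36 with E. coli scaling). The first of these calls was lost without pool 2 or 3 of day -17 or pool 3 of day 1 (0.0574 to 0.0677), with only the 6 compared arrays (0.0506) and with E. coli scaling, the other without pool 2 of day 1 or pool 2 or 3 of day 17 (0.0595 to 0.0697). BLVRA, a biliverdin reductase, was lower on day 1 than on day -17 (-0.87 ± 0.25, adjusted p = 0.0320), which was lost without pool 2 or 3 of day -17 or pool 1 or 3 of day 1 (0.0695 to 0.107), and with quantile normalization (0.0609) or median centring (0.0517).

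Of 8 haem synthesis genes, 5 were tested. Among them 2 were called lower for day 1 against day -17 and 1 each for day 17 against day 1 and against day -17, with none higher, and medians of -0.27, 0.18 and -0.23. FECH, which inserts iron into protoporphyrin to form haem, gave -0.54 ± 0.15 for day 1 against day -17 (limma adjusted p = 0.0300). That call was lost without pool 1 or 3 of day -17 or any 1 pool of day 1 (adjusted p = 0.05003 to 0.0895). It was also lost with median centring (0.105) or no intensity trend (0.05006). PPOX, the enzyme of the preceding step, gave -0.50 ± 0.14 for day 1 against day -17 (adjusted p = 0.0281), and its other tested probe set gave -0.36. The call was lost without any 1 pool of day -17 or pool 3 of day 1 (0.0606 to 0.0924). It was also lost with quantile normalization, median centring or only the 6 compared arrays (0.0578 to 0.0795). ALAS1, the first enzyme of the pathway, gave -0.67 ± 0.18 for day 17 against day 1 (adjusted p = 0.0375) and -0.61 ± 0.18 for day 17 against day -17 (adjusted p = 0.0205). The first was lost without pool 2 or 3 of day -17, pool 2 or 3 of day 1 or any 1 pool of day 17 (0.0501 to 0.112), and with quantile normalization, no intensity trend or only the 6 compared arrays (0.0552 to 0.0617). The other was lost without pool 2 or 3 of day -17 or of day 17 (0.0620 to 0.0675) and with quantile normalization (0.0646).

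Of 19 genes of mitochondrial iron import and iron-sulphur cluster assembly, 12 were tested, with 4 called higher on day 1 against day -17, 2 on day 17 against day 1, and 8 between day 17 and day -17, and none lower. The medians were 0.33, 0.14 and 0.60. E. coli scaling, which lowers all genes alike, gave 2, 9 and 11 called lower and none higher, where 40.4%, 70.9% and 81.7% of all tested probe sets were called lower. ISCA1 was higher on day 17 than on day -17 (1.02 ± 0.18, limma adjusted p = 0.00152; -0.28 with E. coli scaling), as was ISCA2 (0.84 ± 0.14, adjusted p = 0.00116; -0.47 with E. coli scaling). Both are assembly factors.

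NFS1, the cysteine desulphurase that supplies sulphur to the cluster, was higher on day 17 than on day 1 (0.75 ± 0.15, limma adjusted p = 0.0106; -0.13 with E. coli scaling). ISCU, the scaffold protein, was too (0.60 ± 0.14, adjusted p = 0.0199; -0.27 with E. coli scaling), except without pool 2 or 3 of day 17 (adjusted p = 0.0677 and 0.0750). ISCA1 was also higher on day 1 than on day -17 (0.78 ± 0.18, adjusted p = 0.0131), except without pool 3 of day 1 (0.0530) and with E. coli scaling. NUBP2, a cytosolic assembly factor, gave 0.79 ± 0.21 for day 1 against day -17 (adjusted p = 0.0228), and its other tested probe set gave 0.18. The call was lost without pool 1 or 3 of day -17 or pool 2 or 3 of day 1 (0.0587 to 0.0862). It was also lost with only the 6 compared arrays (0.0573) and with E. coli scaling.

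**Figure D4:**
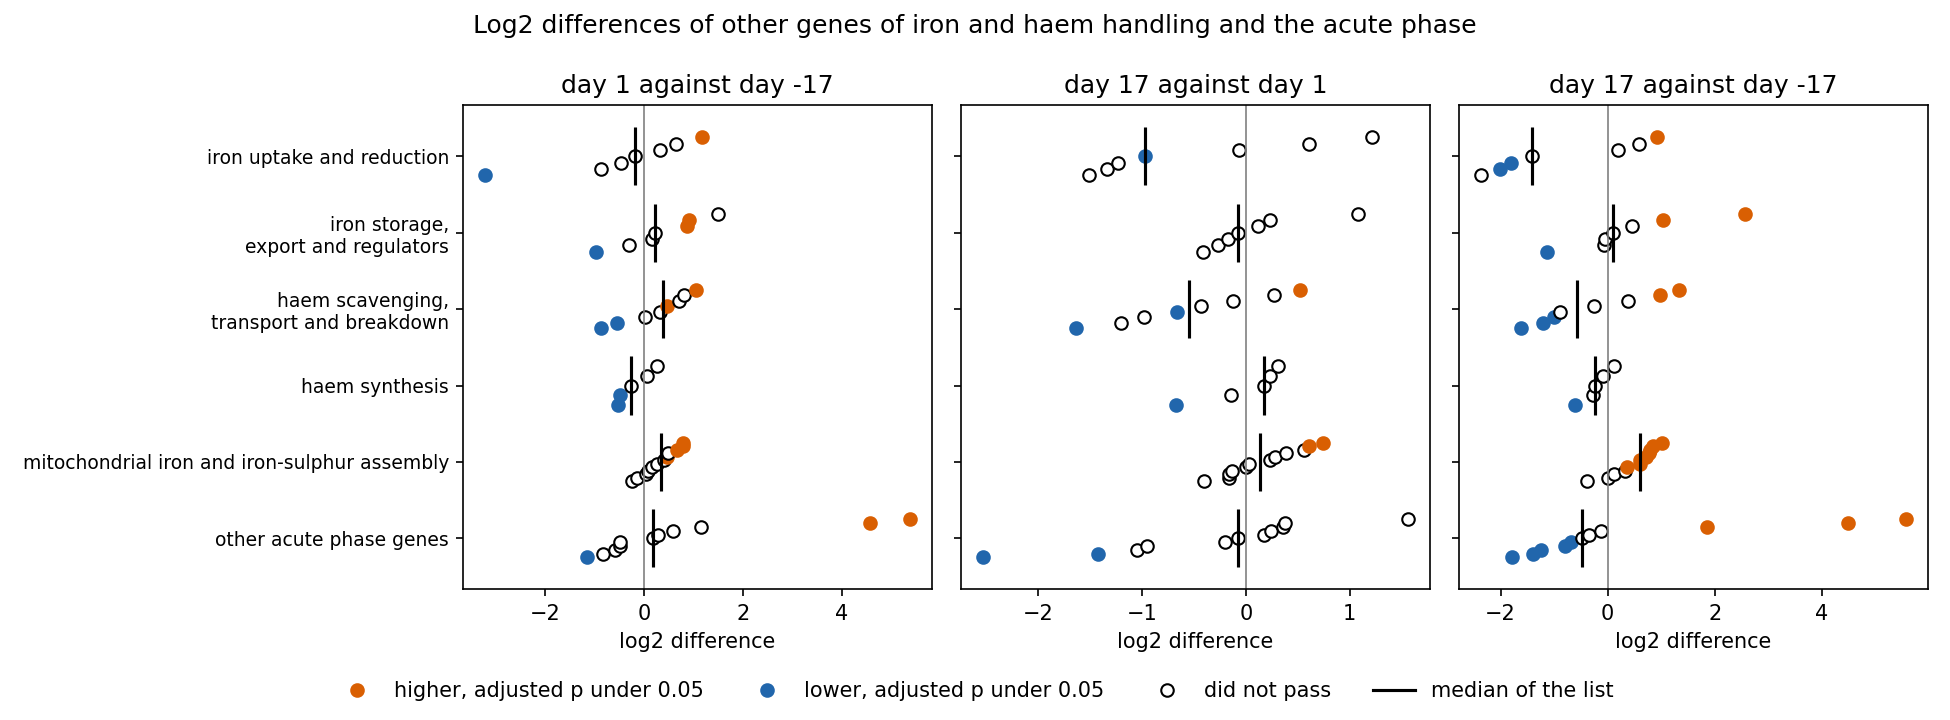
Log2 difference of each tested gene of the 6 lists of iron and haem handling and of acute phase genes in the 3 comparisons, at the deposited scaling, with the median of each list as a bar. Orange and blue points passed at an adjusted p under 0.05 as higher and lower, and open points did not; LBP and PGLYRP1 stand apart at 4.49 to 5.57 against day -17.

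The other acute phase genes did not share one direction with HP. Of 18, 11 were tested, with 2 called higher and 1 lower on day 1 against day -17. The counts were 0 and 2 between day 17 and day 1, and 3 and 5 between day 17 and day -17. The median differences were 0.19, -0.08 and -0.47. LBP, the lipopolysaccharide-binding protein, had signals of 1055, 2360 and 1954 on day 1 and of 1669, 2005 and 2109 on day 17, against 36.3, 51.6 and 34.9 on day -17. It was higher on day 1 (5.39 ± 0.28, limma adjusted p = 2.49e-06) and on day 17 (5.57 ± 0.28, adjusted p = 7.38e-07) than on day -17, where all its signals were below the 40th percentile. With these held to that percentile it was at least 19.0-fold higher on day 1 and at least 21.5-fold higher on day 17. A further LBP probe set stayed below the filter at 1.38 to 69.8.

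PGLYRP1, a peptidoglycan-binding antibacterial protein, had signals of 20793, 24987 and 24549 on day 1 and of 23629, 28074 and 16429 on day 17, against 839, 924 and 1234 on day -17. The differences against day -17 were 4.57 ± 0.20 on day 1 (limma adjusted p = 7.77e-07) and 4.49 ± 0.20 on day 17 (adjusted p = 4.22e-07). As with HP and LBP, days 1 and 17 overlapped. The calls of HP, LBP and PGLYRP1 against day -17 held under every alternative tried, E. coli scaling and the omission of any 1 array included.

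Acute phase genes that were lower included SERPINA1 (alpha-1-antitrypsin) on day 1 against day -17 (-1.16 ± 0.24, limma adjusted p = 0.00782) and SAA2 (a serum amyloid A) on day 17 against day -17 (-1.78 ± 0.32, adjusted p = 0.00158). A further SAA2 probe set gave -0.70 for day 17 against day -17 and did not pass. PTX3, a long pentraxin, was 5.80-fold lower on day 17 than on day 1 (-2.54 ± 0.52, adjusted p = 0.0126). Its difference on day 17 against day -17 (-1.39 ± 0.52, adjusted p = 0.0481) was lost when any 1 array but pool 2 of day 17 was left out (adjusted p = 0.0522 to 0.126), and with quantile normalization, median centring, no filter, no intensity trend or only the 6 compared arrays (0.0545 to 0.0725). ITIH3, an inter-alpha-trypsin inhibitor heavy chain, gave -1.43 ± 0.40 for day 17 against day 1 (adjusted p = 0.0404), a call lost without pool 3 of day -17, pool 1 or 2 of day 1 or any 1 pool of day 17 (0.0565 to 0.122), and with no filter, no intensity trend or only the 6 compared arrays (0.0524 to 0.0573). Its other tested probe set gave 1.88.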

How the data were processed

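RNA of 9 pools was hybridized to Affymetrix porcine arrays. The authors deposited linear signal intensities, 1 for each probe set, which the submitters' processing notes attribute to MAS5 (version not given in the sources used here). The mean after trimming 2% at each end was alike on all arrays. Symbols came from the platform annotation, and 124 control probe sets were left out. Log2 intensities of all 9 arrays were fitted with limma 3.58.1 in R 4.3.3, with day as the only term and an intensity trend. P-values were adjusted over all 15519 tested probe sets, and the code was tested on simulated data. An exact test of 3 against 3 arrays cannot give a two-sided p under 0.1.

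The members and lists were chosen with earlier results of these data known. All members are reported. From each list and comparison, up to 2 called genes with the largest rise and 2 with the largest fall are named, from the brightest probe set of the gene, and for each tested member the 3 genes with the highest Pearson r.

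Deviations of same-numbered pools from their day's mean correlated at 0.235 to 0.506 for day 1 against day -17, at 0.105 to 0.130 for day 17 against day -17 and at 0.096 to 0.107 for day 17 against day 1. Differently numbered pools gave -0.387 to 0.113, -0.074 to -0.042 and -0.077 to -0.027 in the same order. In each comparison every same-numbered pair lay above every differently numbered pair. Every same-numbered pair exceeded 0.1 in the first and second comparisons only. The labels do not tie a number to sows, so the block was an alternative and the main fit uses no pairing. The others were quantile normalization, median centring, E. coli control scaling, 16 added to each signal, no filter or a 60th percentile filter, no trend, the 6 compared arrays alone, the mean over probe sets of a gene, and leaving out each array.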

Additional observations from a re-analysis of the deposited data

How the results depend on the processing

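Most limits concern scaling and the small number of arrays. With E. coli control scaling the calls over all tested probe sets were 7085 for day 1 against day -17 (814 higher, 6271 lower), 11114 for day 17 against day 1 (112 and 11002) and 13156 for day 17 against day -17 (471 and 12685). The members called were then 4 for day 17 against day 1, all lower, and 3 for day 17 against day -17, 1 higher and 2 lower. For day 17 against day 1, 1 member was called with quantile normalization, median centring, no filter, no intensity trend or only the 6 compared arrays. Leaving out 1 array gave 2110 to 4424, 1049 to 2109 and 5887 to 7639 calls over all tested probe sets in the 3 comparisons (day 1 against day -17, day 17 against day 1, day 17 against day -17), and 2 to 5, 1 to 2 and 4 to 5 among the members. The pool number as a fixed replicate block changed 1 member call, the dimmer FTL probe set for day 1 against day -17 (adjusted p = 0.0275, or 0.0671 with a random block of correlation 0.125).

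Directions that turned with E. coli scaling were FTH1 in all 3 comparisons (-0.0759, -0.50 and -0.57), the brighter FTL probe set for day 1 and day 17 against day -17 (-0.21 and -0.15), LTF for day 17 against day 1 (-0.72), SLC11A2 (-0.38), IREB2 (-0.27), ISCA1 (-0.28), ISCA2 (-0.47) and HMOX2 (-0.32) for day 17 against day -17, and HMOX2 (-0.36), NFS1 (-0.13) and ISCU (-0.27) for day 17 against day 1. The scaling lowers all differences alike by construction. LTF for day 17 against day 1 also turned with quantile normalization (-0.10) and without pool 1 of day 17 (-0.16, in a range over omitted arrays up to 0.39). The mean over both FTL probe sets gave -0.29 and -0.0066 for day 1 and day 17 against day -17. TF turned without pool 1 of day -17 (0.70 and 0.23 for day 1 and day 17 against day -17), without pool 2 of day 1 (0.14 for day 1 against day -17) and without pool 1 of day 1 (0.61 for day 17 against day 1), and the cause was not tested; its lowest values over omitted arrays were -1.64 on day 1 against day -17, -1.95 between day 17 and day -17, and -1.16 between day 17 and day 1. Of the other member values recomputed, 299 kept direction and side of the threshold, 25 no longer passed and 7 came to pass.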

Other observations

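A probe set annotated jointly to TF and the uncharacterised locus LOC100515857 (Ssc.1137.1.S1_at) was outside the members because its symbol is not single. Its signals were 1957, 408 and 1250 on day -17, 8254, 1015 and 8120 on day 1 and 37517, 22586 and 14506 on day 17. Every array of day 17 lay above every array of the other days. The difference was 4.53 ± 0.80 for day 17 against day -17 (limma adjusted p = 0.00137), 2.03 ± 0.80 for day 1 against day -17 (adjusted p = 0.0891) and 2.50 ± 0.80 for day 17 against day 1 (adjusted p = 0.0629). Another probe set with the same annotation had signals of 27.8 to 359 and was not tested. The annotation does not settle which gene these probe sets report, and the tested TF probe set, whose highest signal was 1841, showed no such change. Of 5 probe sets annotated to both HDHD2 and FTH1, 2 were tested and none was called.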
